A study of Homo sapiens and Mus musculus with 20 samples.

Results

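An antibody against the HA epitope was used for chromatin immunoprecipitation in 2 libraries of ARP1, a human multiple myeloma cell line, out of 20 libraries in the series. One ARP1 line was titled HA-tagged and carried the genotype label KDM6A knock out. The other was untagged ARP1 labelled KDM6A wild type. The tag and the genotype label therefore differ together and cannot be told apart, and the labels do not say whether a tagged protein was added back to knockout cells. The header of the tagged list joins HA with UTX, another name of KDM6A. The tagged list gave 54338 regions and the untagged list 78725, on chromosomes 1 to 22 and X, after regions with equal coordinates were merged. Each region was classed by whether it shared at least 1 bp with a region of the other list. The remaining lists used here are H3K27ac, H3K4me1, H3K27me3, KDM6A antibody and input DNA from ARP1 labelled wild type (WT) or knock out (KO), and KDM6A antibody from KARPAS, also labelled multiple myeloma, which all had 1 library per group. Differences below therefore cannot be set against a spread between replicates, and the 95% intervals, computed by the exact Clopper-Pearson method, cover only the error of counting regions.

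KDM6A is a demethylase of lysine 27 of histone H3 and a subunit of the COMPASS complexes that contain KMT2C or KMT2D, which place H3K4me1 at enhancers. H3K27ac marks active enhancers and promoters, H3K4me1 marks enhancers and the flanks of promoters, and H3K27me3 is the Polycomb mark that KDM6A removes. HA is a short viral epitope fused to a protein so that 1 antibody can precipitate it, and an untagged line shows which DNA that antibody and the procedure recover without the tag.

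The letters at promoters differed between the classes. The search used promoter windows of RefSeq GRCh38.p14, from 250 bases before to 50 bases after a transcription start. The first set shows 8 windows of listed antigen presentation and interferon-stimulated genes that overlapped a region found in the tagged list alone. They hold the interferon response element, which is GAAA, any 2 bases and GAAA again, or TTTC, any 2 bases and TTTC when read on the other strand. Each is printed 5′ to 3′ on the gene's strand with every whole match in capitals, so that overlapping matches at TAPBP and ISG15 form a longer run.
ERAP2 (chr5:96876430-96876499, + strand): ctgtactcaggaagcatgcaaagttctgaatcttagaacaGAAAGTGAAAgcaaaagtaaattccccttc
PSMB10 (chr16:67936851-67936911, - strand): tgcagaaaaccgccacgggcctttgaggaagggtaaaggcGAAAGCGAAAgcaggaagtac
TAPBP (chr6:33314079-33314132, - strand): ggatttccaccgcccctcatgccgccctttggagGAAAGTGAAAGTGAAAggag
RFX5 (chr1:151347157-151347246, - strand): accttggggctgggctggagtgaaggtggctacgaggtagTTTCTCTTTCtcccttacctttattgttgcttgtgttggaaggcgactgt
ISG15 (chr1:1013350-1013439, + strand): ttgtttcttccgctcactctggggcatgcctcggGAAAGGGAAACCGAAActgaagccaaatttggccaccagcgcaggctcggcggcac
ISG20 (chr15:88638907-88638996, + strand): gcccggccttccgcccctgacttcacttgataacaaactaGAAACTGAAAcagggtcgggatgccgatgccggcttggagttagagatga
HERC5 (chr4:88457005-88457094, + strand): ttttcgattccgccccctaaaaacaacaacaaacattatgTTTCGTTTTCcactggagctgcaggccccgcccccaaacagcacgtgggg
IFIT5 (chr10:89414509-89414567, + strand): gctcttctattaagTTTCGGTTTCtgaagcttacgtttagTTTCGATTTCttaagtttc

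The second set shows 4 windows of listed ribosomal and housekeeping genes that overlapped a region found in the untagged list alone. Here the capitals mark the GC box GGGCGG, or CCGCCC on the other strand.
RPL3 (chr22:39319643-39319698, - strand): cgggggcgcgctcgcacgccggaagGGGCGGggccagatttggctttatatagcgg
RPL4 (chr15:66504865-66504920, - strand): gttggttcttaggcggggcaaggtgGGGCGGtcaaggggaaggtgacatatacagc
TFRC (chr3:196082107-196082162, - strand): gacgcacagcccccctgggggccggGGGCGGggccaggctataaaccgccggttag
RPS6 (chr9:19380301-19380356, - strand): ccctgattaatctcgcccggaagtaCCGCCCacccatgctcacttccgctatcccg

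The interferon response element was found in 78 promoter windows that overlapped a tagged-only region, 6.81% of them (95% interval 5.42 to 8.42%). Its share was 2.53% of the 1662 windows on an untagged-only region (1.83 to 3.40%) and 3.17% of all 22132 windows. Among windows that overlapped WT H3K27ac, it was 6.64% of the 1070 with a tagged-only region and 2.29% of the 10775 without one. The ETS and IRF composite, which is GGAA, any 2 bases and GAAA and can overlap the first element, had shares of 4.80, 1.87 and 2.51% in tagged-only, untagged-only and all windows, and the AP-1 element TGANTCA had 7.68, 2.65 and 6.15%. The GC box had 57.3, 76.8 and 56.3%, and the ETS element CCGGAAGT had 8.90, 13.4 and 5.35%. Among windows on WT H3K27ac the GC box was frequent in general, at 72.8%. It had 60.2% of those with a tagged-only and 78.5% of those with an untagged-only region. The ETS element had 9.28, 9.53 and 13.7% in these 3 sets. The median GC content was 60.3% in tagged-only windows, 66.3% in untagged-only windows and 62.3% in all windows, and its part in these shares was not tested. In the printed windows with the interferon response element, the region's summit lay 6 bp (IFIT5) to 217 bp (HERC5) from the match nearest the start. By the authors' −log10 q, the tagged-only regions at the printed windows ran from 8.91 (ERAP2 and RFX5) to 2.33 (IFIT5, rank 48730 of 54338). Those at HERC5, TAPBP and ISG15 had 4.52, 3.75 and 3.02. These and IFIT5 fall below the minimum of 5 used as an alternative setting. A window of IFIT3 with a match and a region of 7.07 is not printed. A match is a run of letters and was not tested as a binding site.

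Most of the strongest HA regions of tagged cells had no counterpart in untagged cells, while most of the strongest regions of untagged cells had one in tagged cells. The tagged list divided into 28120 tagged-only regions (51.7%, 51.3 to 52.2%) and 26218 shared regions. The untagged list divided into 54855 untagged-only regions (69.7%, 69.4 to 70.0%) and 23870 shared regions. Each list was split into 10 rank groups of equal size, group 1 being the strongest. In rank group 1 of the tagged list 69.2% of regions were tagged-only, against 42.6% in group 5 and 53.1% in group 10. In rank group 1 of the untagged list 10.1% were untagged-only, rising to 89.2% in group 10. The 2 strongest groups differed in place. In group 1, 23.9% of tagged and 89.9% of untagged regions lay in 1 Mb bins dense in HA regions, described below. In group 10 these shares were 59.1 and 54.9%. The part of such bins in the shares by rank group was not tested. Ranks follow the authors' −log10 q and then their fold enrichment over the mean of the library. The highest −log10 q was 214 among tagged-only regions, 656 among shared regions of the tagged list and 56.7 among untagged-only regions. The highest ranked tagged-only region stood at rank 35 of its list, below shared regions only, and the highest untagged-only one at rank 384. Untagged-only regions were narrow, with a median of 283 bp against 383 bp for tagged-only regions.

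The libraries held 25265497 (tagged) and 16624794 (untagged) tags after the authors' filtering, and the lowest pileup in a listed region was 8 tags and 6 tags. Depth thus differs between the lists, and its part in the counts of regions was not tested. Of the shared tagged regions 92 shared fewer than 10 bp, and of the tagged-only regions 727 lay within 100 bp of an untagged region and 4003 within 1000 bp. Of the 54855 untagged-only regions 1421 lay within 100 bp of a tagged region and 16296 within 1000 bp.

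Much of both lists came from a small part of the genome. In 137 bins of 1 Mb, 4.5% of all bins, at least 1 of the lists had over 10 times its median count of 8 tagged or 7 untagged regions. These dense bins held 50.9% of tagged and 71.1% of untagged regions, and 75 of them contained no protein-coding gene. The bin at 123 to 124 Mb of chromosome 1 held 782 tagged and 1039 untagged regions, and the bin at 59 to 60 Mb of chromosome 7 held 270 and 1023. Inside dense bins 18.4% of tagged regions were tagged-only. Outside them 86.3% were, which left 23021 tagged-only and 3644 shared regions of the tagged list, and 19311 untagged-only regions (85.0% of 22730). Of the 137 dense bins 11 held more tagged than untagged regions, 5 of them in the stretch at 9 to 14 Mb of chromosome 2, with 2221 tagged and 1492 untagged regions. It gave 1455 tagged-only regions, 5.17% of that class, and 34.7% of them overlapped WT H3K27ac.

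**Figure D1:**
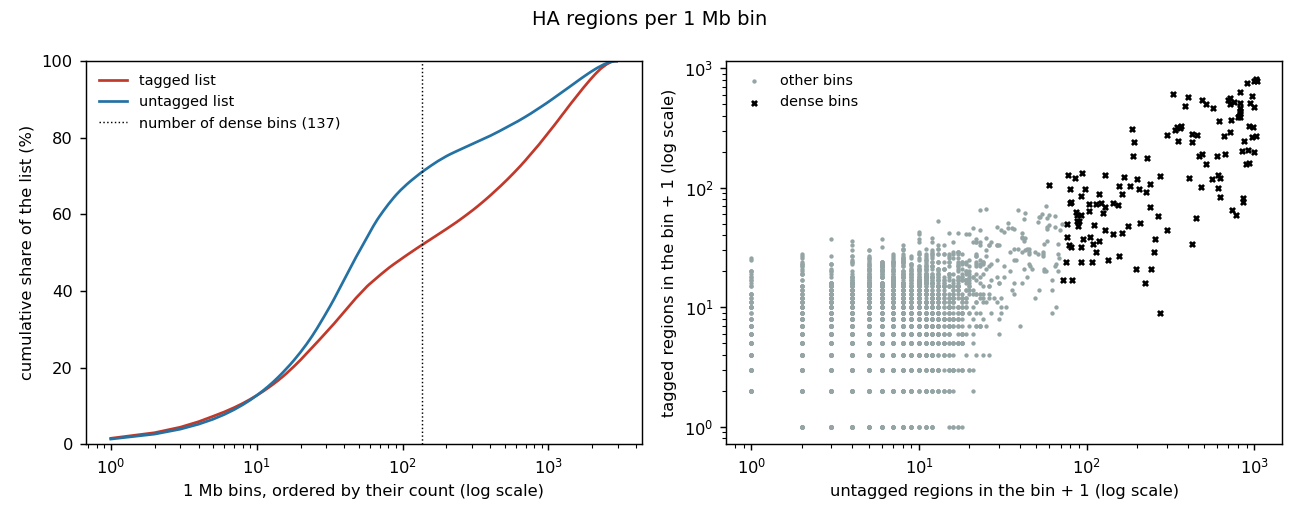
Left, the cumulative share of each HA list (y axis, %) over 1 Mb bins ordered by their count (x axis, log scale). Right, tagged against untagged regions per bin, each plus 1 on log axes, with dense bins as crosses. The 137 dense bins held 50.9% of the tagged list and 71.1% of the untagged list.

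Tagged-only regions carried the marks of active enhancers and promoters far more often than untagged-only regions. WT H3K27ac overlapped 62.8% of tagged-only (62.2 to 63.4%), 39.5% of shared and 11.4% of untagged-only regions (11.1 to 11.6%). WT H3K4me1 overlapped 67.1, 52.3 and 17.4% in the same order. Outside dense bins the shares for H3K27ac were 71.6, 60.3 and 15.1%, and for H3K4me1 75.1, 66.4 and 16.0%. The region's summit lay inside an H3K27ac region for 47.3% of tagged-only and 9.42% of untagged-only regions, where that list covers 2.34% of the span. Both differences exceed counting error, but with 1 library per line they have no replicate error to be set against.

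The contrast was wide far from transcription starts and narrow close to them. Outside dense bins and over 2.5 kb from a start, 65.5% of 19641 tagged-only regions overlapped both H3K27ac and H3K4me1, against 5.47% of 16366 untagged-only regions. Within 2.5 kb of a start the shares were 88.0% of 2273 and 85.9% of 2028. Neither mark was present at 21.3% of all tagged-only and 83.0% of all untagged-only regions outside dense bins.

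H3K27me3 was most frequent at shared regions. It overlapped 6.83% of tagged-only, 17.7% of shared and 2.5% of untagged-only regions. Outside dense bins 5.73% of tagged-only regions overlapped both H3K27me3 and H3K27ac, and 0.669% overlapped H3K27me3 alone. Counted by summit, H3K27me3 held 1.89% of tagged-only regions and its difference from untagged-only regions was 0.124 percentage points, against 4.33 by overlap. The WT H3K27me3 library held 5026016 fragments and 17355 regions, and that of KO 6595820 fragments and 11865 regions. The part of depth in these overlaps was not tested.

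**Figure D2:**
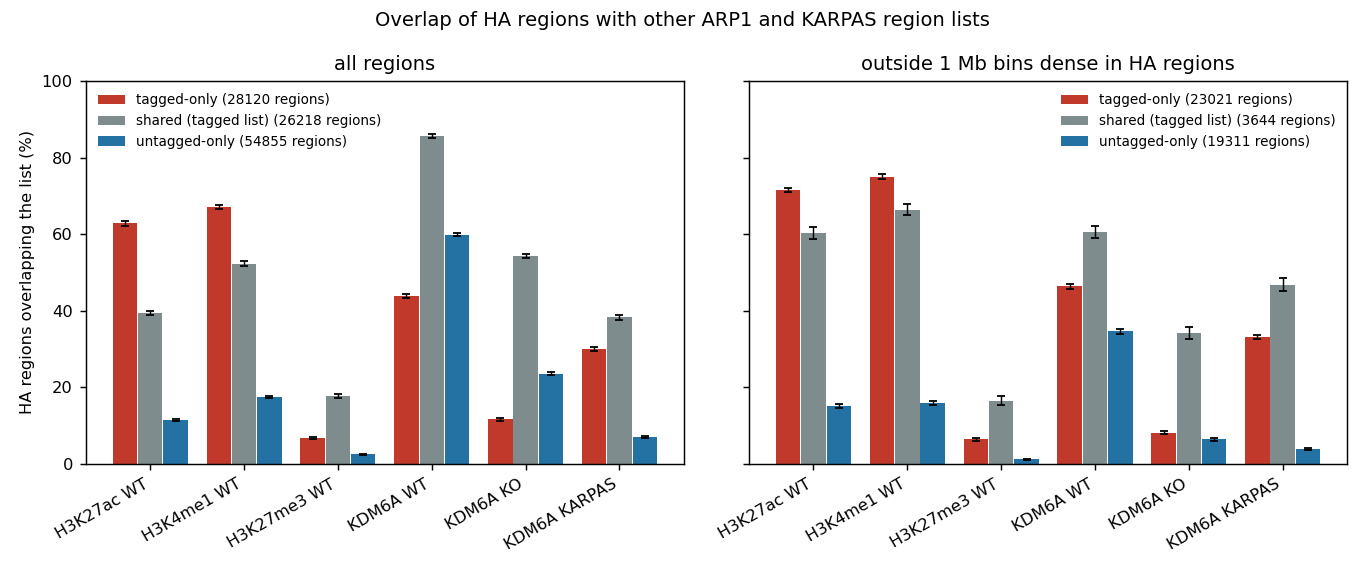
Share of HA regions in each class that overlapped another list (y axis, %), for all regions (left) and outside dense bins (right). Bars are tagged-only (red), shared (grey) and untagged-only regions (blue) with exact 95% intervals. For H3K27ac the bars stand at 62.8, 39.5 and 11.4% on the left and at 71.6, 60.3 and 15.1% on the right.

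The KDM6A antibody gave the opposite order with and without the dense bins. Its WT list overlapped 43.9% of tagged-only and 59.9% of untagged-only regions, but 46.4 and 34.6% outside dense bins. Inside them it overlapped 73.6% of untagged-only regions. Shared regions had the highest overlap in both settings, 85.7 and 60.5%. The KO list of the same antibody overlapped 8.13% of tagged-only, 34.1% of shared and 6.41% of untagged-only regions outside dense bins. KDM6A antibody regions of KARPAS overlapped 33.1, 46.8 and 3.81%. With dense bins included, input regions of WT overlapped 0.181% of tagged-only, 2.67% of shared and 0.576% of untagged-only regions. Those of KO overlapped 0.477, 7.20 and 1.66%. The input libraries held only 383824 (WT) and 724630 (KO) fragments after filtering. A low overlap therefore cannot show that a region is absent from input.

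Outside dense bins, 9078 tagged-only regions (39.4%) lay on a KDM6A antibody region of WT with none in KO. The same held for 5924 untagged-only regions (30.7%). The regions differed in their marks, since 7524 of the 9078 overlapped H3K27ac and 144 of the 5924 did. Of the same sets, 3258 tagged-only and 154 untagged-only regions also lay on a KARPAS region. No KDM6A antibody region, WT or KO, lay on 52.4% of tagged-only regions. The WT list of that antibody held 90964 regions over 44.8 Mb and the KO list 44936 over 23.2 Mb. Their libraries had 11898708 and 20186824 tags after filtering. The part of list length in these shares was not tested.

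The tagged library carried the KO label, so the classes were also set against the KO marks. Outside dense bins, 62.5% of tagged-only regions overlapped H3K27ac in both WT and KO, 9.04% in WT alone and 4.18% in KO alone. H3K4me1 was listed in both genotypes at 10.9% and in WT alone at 64.1%. The KO H3K4me1 list covered 37.9 Mb against 71.8 Mb in WT, and overlapped 12.8% of tagged-only regions but 37.8% of shared ones.

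Overlap with H3K27ac followed rank. Outside dense bins it was 95.9% in rank group 1 and 47.0% in rank group 10 for tagged-only regions. Untagged-only regions had 72.0% in group 1, which held 118 of them, 28.8% in group 2 and 12.2% in group 10. Those 118 regions were also near genes, with 53.4% within 2.5 kb of a gene end, against 7.99% of tagged-only regions of group 1. The KDM6A antibody of WT overlapped 87.7% of tagged-only regions in group 1 and 18.9% in group 10, and 31.4 and 26.4% of untagged-only regions.

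**Figure D3:**
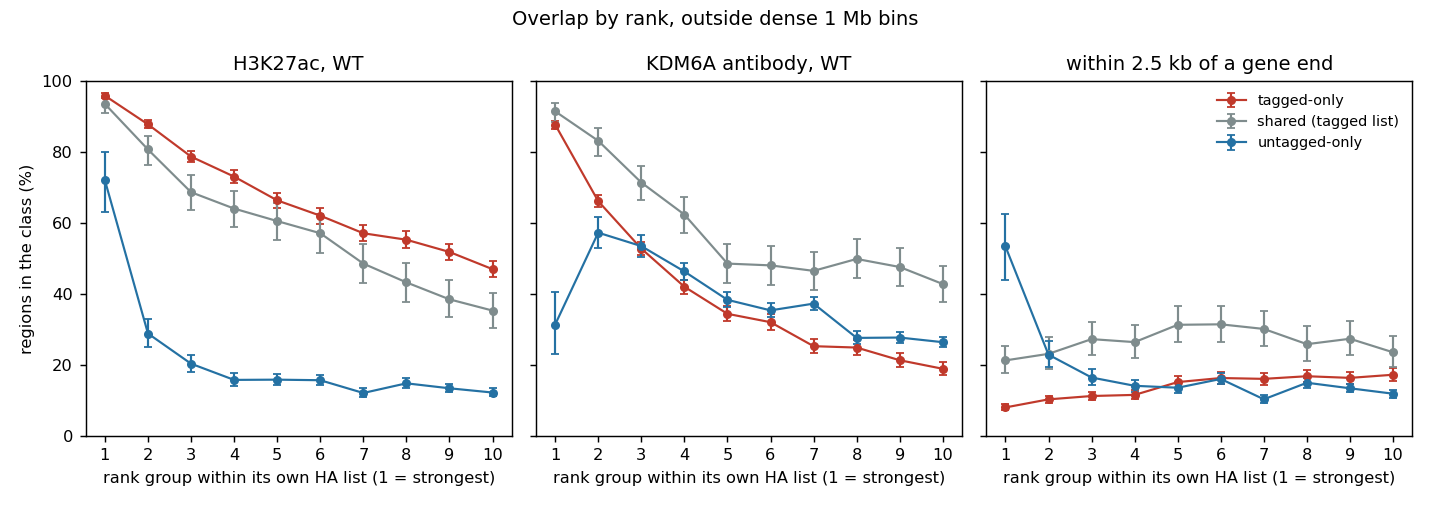
Share of regions (y axis, %) that overlapped WT H3K27ac (left) or the WT KDM6A antibody list (middle), or lay within 2.5 kb of a gene end (right), by rank group within the region's own HA list (x axis, 1 is strongest), outside dense bins. Points carry exact 95% intervals. In group 1 tagged-only regions reach 95.9% for H3K27ac and 7.99% for gene ends, and untagged-only regions 72.0 and 53.4%.

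Seen from the mark, 25.7% of the 69127 WT H3K27ac regions held a tagged-only region and 7.82% an untagged-only one. The share with a tagged-only region was 61.0% among the widest 10% of H3K27ac regions and 6.15% among the narrowest 10%. With an untagged-only region the shares were 18.3 and 6.32%. Median widths were 3380 and 160 bp, and a wide region can meet the 1 bp rule more easily. By rank group of the H3K27ac list, 44.1% held a tagged-only region in group 1 and 4.89% in group 10. For untagged-only regions the shares were 24.2% and 10.4%. Median widths there were 2822 and 201 bp, and the part of width was not tested. No KO H3K27ac region lay on 14.8% of H3K27ac regions with a tagged-only region and on 35.4% of those without. Within rank groups the gap was smaller and its direction turned. In groups 2 to 6 the share was higher with a tagged-only region, at 12.6 against 9.62% in group 4 and 24.0 against 22.6% in group 5. In groups 7 to 10 it was lower, at 53.4 against 62.5% in group 9.

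Tagged-only regions lay mostly inside genes or near them, away from gene ends. Of all tagged-only regions 11.8% were within 2.5 kb of the end of a protein-coding gene, 38.4% elsewhere inside a gene and 7.75% outside genes and over 500 kb from a gene end. For untagged-only regions the shares were 5.92, 13.0 and 55.2%, and for shared regions 5.83, 7.35 and 68.9%. Outside dense bins the gene-end shares were 13.0% for tagged-only and 13.9% for untagged-only regions, so the order turned. Shared regions then stood at 26.5%. Elsewhere inside genes there were 42.6% of tagged-only and 30.5% of untagged-only regions. The median distance to a gene end outside dense bins was 32.6 kb for tagged-only, 24.2 kb for shared and 50.5 kb for untagged-only regions.

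**Figure D4:**
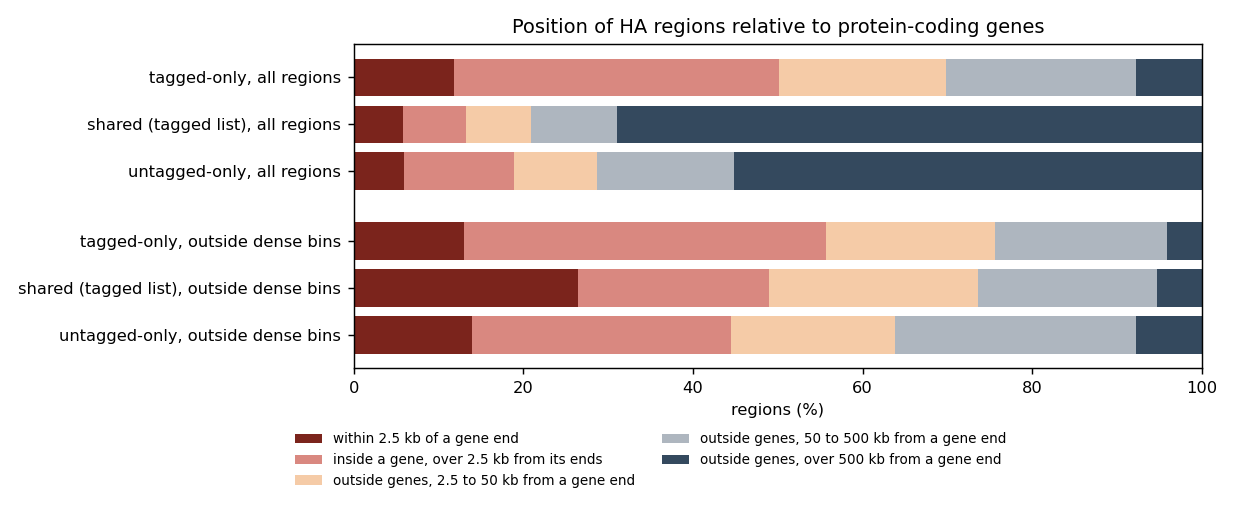
Stacked shares of HA regions (x axis, %) by position relative to protein-coding genes, for each class over all regions (top) and outside dense bins (bottom). Regions outside genes and over 500 kb from a gene end make up 68.9% of shared and 55.2% of untagged-only regions overall and 5.27 and 7.80% outside dense bins.

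At the KDM6A gene itself (chromosome X, 44873188 to 45112779), the strongest of all untagged-only regions was found. It lay at 45020443 to 45020843, 147 kb from the start coordinate of the gene, with a pileup of 49 tags, a fold enrichment of 22.4 and a −log10 q of 56.7, rank 384 of 78725. None of the H3K27ac, H3K4me1, H3K27me3 or KDM6A antibody lists of WT or KO had a region there, nor did KARPAS. A second untagged region at 45108705 to 45108904 (9 tags) lay on KDM6A antibody regions of both WT and KO. The tagged list had 1 region in the gene, at 44997972 to 44998302 with 14 tags, on H3K27ac. No HA region of either line lay within 2.5 kb of the gene's ends, where WT and KO both had H3K27ac. Whether a region falls in an exon was not analysed here.

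Among single genes, the 10 highest ranked tagged-only regions at gene ends outside dense bins included GOLM2, MAP1LC3B2, LOC124901373, BTLA, HHLA2, C1GALT1, SOWAHD, HOMER2 and PRX. All 10 overlapped H3K27ac, H3K4me1 and the KDM6A antibody list of WT, and those at MAP1LC3B2, LOC124901373 and HHLA2 also that of KO. Each of the regions named here also lay on a KARPAS region. BTLA, an inhibitory receptor of lymphocytes, had its region at chr3:112463108-112464938 with a pileup of 84 tags and rank 256 of 54338. HHLA2, a B7 family ligand, had one at chr3:108292780-108294497 with 83 tags and rank 273.

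The 10 highest ranked untagged-only regions at gene ends were of another kind. They included the immunoglobulin lambda-like gene IGLL5, the histone genes H2BC13, H2AC13 and H3C10 (1 region), ACTG1 with FSCN2, CCNG1, RAB26 with TRAF7, ID2, PABPC1, GTF2A1 and NPM1. All 10 overlapped H3K27ac and H3K4me1, and none overlapped the KDM6A antibody list of WT. The region of IGLL5 (chr22:22887463-22888149) had 38 tags and rank 776 of 78725, and that of NPM1, a nucleolar chaperone, 27 tags and rank 2188. The 10 highest ranked shared regions at gene ends included DUX4, FRG2 and FRG2C, members of near-identical gene families whose reads may not be placed uniquely, and also WDR74 and the chemokine gene CCL3. DUX4, FRG2 and FRG2C overlapped all 3 WT marks and the KDM6A antibody lists of WT and KO.

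Over all 19974 protein-coding genes, 16.0% had a tagged-only region within 2.5 kb of a gene end, 6.10% a shared and 14.8% an untagged-only region. Outside dense bins these shares were 15.0, 5.10 and 13.5%. With a window of 1 kb the order turned, with 2184 genes with a tagged-only and 2423 with an untagged-only region. A tagged-only region was counted at 6098 genes with a 10 kb window, and at 2009 with a −log10 q minimum of 5. When regions within 1 kb counted as shared the number was 2723. Within 2.5 kb of a gene end the KDM6A antibody lists had a region at 9.70% (WT) and 4.24% (KO) of genes. Of the 3202 genes with a tagged-only region, 753 (23.5%) also had an untagged-only region, which is 25.5% of the 2955 genes with the latter. H3K27ac was present at the ends of 93.0% of the former genes and 90.1% of the latter. Over all genes that share was 61.6%, the background for the H3K27ac counts of the lists. Among genes with WT H3K27ac at an end, 24.2% had a tagged-only, 9.30% a shared and 21.6% an untagged-only region. These shares and counts are the background for the lists that follow, and neighbouring genes can share 1 region.

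Plasma cell identity genes held both kinds of region. Of 24 members 14 had a tagged-only region at a gene end, 10 an untagged-only and 7 a shared one, and 23 had H3K27ac. The tagged-only count fell to 8 when regions within 1 kb counted as shared and to 9 with a 1 kb window. All 8 defining markers (SDC1, CD38, TNFRSF17, IRF4, PRDM1, XBP1, SLAMF7 and POU2AF1) had H3K27ac and H3K4me1, so none of them lacked an active mark. H3K27me3 was also listed at SDC1 and SLAMF7. CD38, the ectoenzyme targeted by therapeutic antibodies, had a tagged-only region at chr4:15778899-15779402 with 27 tags and a −log10 q of 19.5. TNFRSF17, the receptor BCMA, had one at chr16:11966132-11966535 with 17 tags, on KDM6A antibody signal in WT and not in KO.

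The defining markers differed in the class of region they held. Within the gene or 10 kb of it, IRF4 had 1 tagged-only and 17 untagged-only regions, PRDM1 1 and 15, and XBP1 0 and 7. Regions shared by both lists numbered 4 there at XBP1, 3 at IRF4, 2 at CD38 and 1 at TNFRSF17. The other defining markers had 0. Over all genes, 39.8% had at least 1 tagged-only, 10.9% a shared and 31.2% an untagged-only region in that span. By contrast SLAMF7 had 3 and 0, POU2AF1 2 and 0, and TNFRSF17 1 and 0, while CD38 had 6 and 4 and SDC1 6 and 7. Inside the transcribed span of IRF4, 11 of 14 untagged-only regions overlapped H3K27ac, as did all 11 in PRDM1 and all 4 in XBP1. MYC had 4 untagged-only and 2 shared regions in its span and no tagged-only one. IRF4 nonetheless had a wide tagged-only region 0.528 kb from its end, at chr6:389395-391224, with 37 tags, rank 2920 and KDM6A antibody signal in WT. IKZF3, the lymphoid transcription factor degraded by lenalidomide, had 10 tagged-only regions in its span, all on H3K27ac, and no untagged-only one.

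Interferon-stimulated genes had tagged-only regions at 11 of 33 members, untagged-only regions at 2 (IFITM3 and IRF1) and shared regions at 2. H3K27ac stood at 17 of the 33, against 61.6% of all genes. With a −log10 q minimum of 5 the tagged-only count fell to 5, and that over all 19974 genes from 3202 to 2009. ISG20, an exonuclease, led them with a region at chr15:88635087-88635882 of 62 tags and a −log10 q of 67.1, on H3K27ac and the KDM6A antibody list of WT but not KO. OAS1 had 23 tags and OAS2 18 tags, both on H3K27ac. IFIT1 and BST2 had 12 and 13 tags, and the one at IFIT1 overlapped no histone mark but lay on a KDM6A antibody region of WT.

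The MHC class I and peptide loading list had tagged-only regions at 10 of 21 members, untagged-only at 7 and shared at 7. The tagged-only count fell to 6 with a −log10 q minimum of 5 and to 5 when regions within 1 kb counted as shared. One region at chr6:32840422-32841160 (27 tags) counted for both TAP2, a subunit of the peptide transporter, and PSMB8, an immunoproteasome subunit. The aminopeptidases ERAP2 (17 tags) and ERAP1 (12 tags), the transactivator NLRC5 (16 tags) and the immunoproteasome subunit PSMB10 (16 tags) followed, all on H3K27ac. The untagged-only regions were at HLA-C, TAP1 with PSMB9 (1 region), PSMB10, PSME2, CALR and PDIA3, with 6 to 15 tags. Of the 16 MHC class II members 3 had a tagged-only region (RFX5, HLA-DPB1 and HLA-DQB1; 1 with a −log10 q minimum of 5 and 8 with a 10 kb window) and none an untagged-only one, and those at HLA-DPB1 and HLA-DQB1 overlapped no mark.

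Immune ligands and adhesion molecules had tagged-only regions at 12 of 30 members and untagged-only at 5. Besides BTLA and HHLA2, the highest pileups at a member were 39 tags at CD48, a ligand of CD244, and 36 at ICAM2, an integrin ligand, both on H3K27ac and the WT KDM6A antibody list. IL6 and cytokine signalling genes had them at 11 and 6 of 24, the former falling to 6 with a −log10 q minimum of 5. Among these, IL10RB had a region of 39 tags with KDM6A antibody signal in both WT and KO, and the kinase PIM1 a region of 19 tags with none.

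T and NK cell markers had tagged-only regions at 5 of 16 members and untagged-only ones at 0, while H3K27ac stood at 7, against 61.6% of all genes. A 10 kb window raised the tagged-only count to 11, and that over all 19974 genes from 3202 to 6098. CD3E, a chain of the T cell receptor complex, had a region of 43 tags (chr11:118316081-118317377) on H3K27ac and on the KDM6A antibody lists of WT and KO. CD28, CD2, TRAT1 and CD3G had 10 to 16 tags. The other cell type lists had at most 2 members in either class: BCL6 (8 tags) of 20 B cell markers against SPIB and VPREB3 in the untagged list, KLF1 of 16 myeloid and erythroid markers against EPOR, and PECAM1 of 16 epithelial and stromal markers against none. With a 10 kb window the tagged-only counts of these lists rose to 7, 6 and 4 in the same order.

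Genes of the unfolded protein response and secretion had the reverse balance, with tagged-only regions at 6 of 24 members (3 when regions within 1 kb counted as shared or with a 1 kb window) and untagged-only at 14. The chaperone HSPA5 had an untagged-only region of 21 tags, rank 4680, over its end, and ERN1, the sensor that splices XBP1 mRNA, one of 20 tags. SEC61A1, a translocon subunit, had 16 tags. None of the 14 lay on a KDM6A antibody region, and 13 lay on H3K27ac. SEL1L, a partner in endoplasmic reticulum degradation, had 6 tagged-only regions in its span and no untagged-only one.

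Ribosomal protein genes had tagged-only regions at 2 of 30 members (RPS9 and RPS19), which became 4 with a −log10 q minimum of 5 or equal list lengths, shared at 10 and untagged-only at 16. All 30 had H3K27ac. The untagged-only regions at RPL3 and RPL4, whose GC boxes are printed above, had 22 and 21 tags, and the 16 members had 7 to 22 tags with H3K27ac and no KDM6A antibody region at each. Housekeeping genes had tagged-only regions at 6 of 19 (3 with a −log10 q minimum of 5 or a 1 kb window), shared at 10 and untagged-only at 9.

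Myeloma oncogenes and drivers had 7 and 5 of 24 members with tagged-only and untagged-only regions, and KDM6A, COMPASS and Polycomb genes 5 and 5 of 20. BIRC3, an inhibitor of apoptosis, had 29 tags and the MLL gene KMT2A 25 tags in tagged-only regions. HOX genes had 1 (HOXD13, 25 tags) and 2 (HOXB4 and HOXB9) of 39, and developmental regulators 2 and 0 of 40. H3K27ac stood at 21 of the 39 HOX genes, against 61.6% of all genes.

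**Figure D5:**
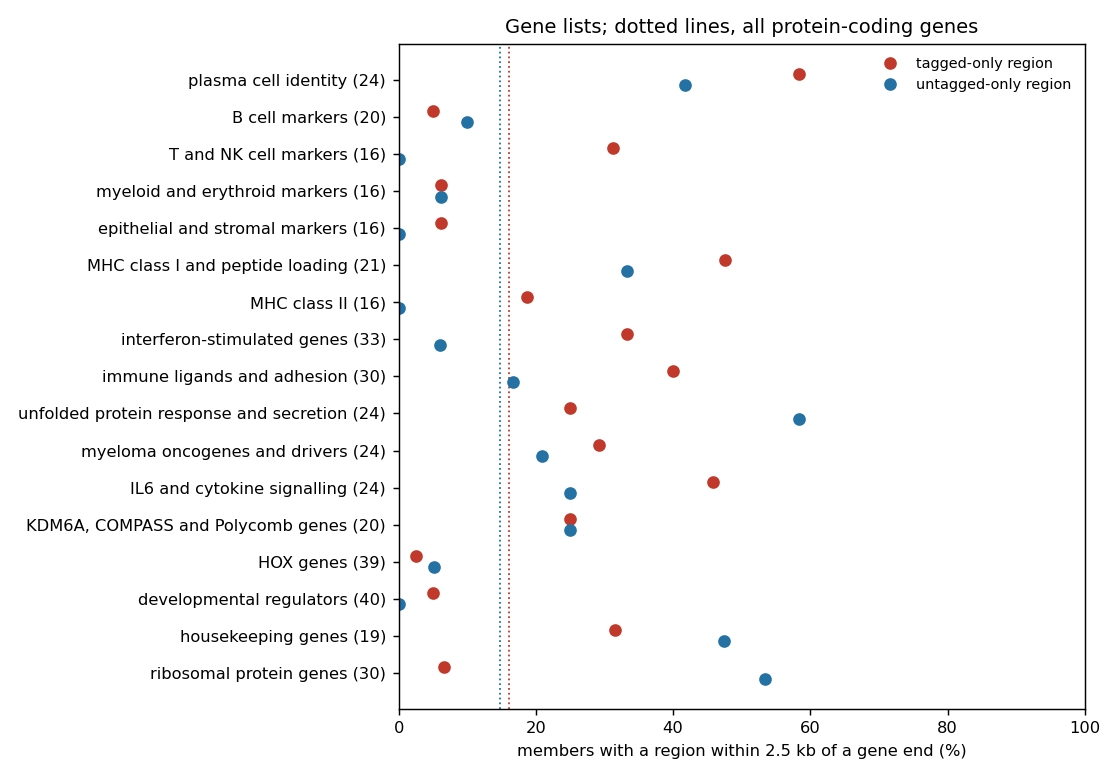
Share of members (x axis, %) with a tagged-only (red) or untagged-only (blue) region within 2.5 kb of a gene end, for 17 gene lists with their numbers of members in brackets. Dotted lines give the shares over all protein-coding genes, 16.0 and 14.8%. Interferon-stimulated genes stand at 33.3 and 6.06%, ribosomal protein genes at 6.67 and 53.3%.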

How the data were processed

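Lists of enriched regions were compared for 2 HA libraries and the other ARP1 and KARPAS libraries named above. Per the labels' protocols, chromatin was fixed with formaldehyde, sonicated, precipitated on magnetic beads and tagmented. HA is not among the antibodies those protocols list. Per the submitters' processing notes, reads were handled with Trimmomatic, Bowtie2, FastQC, MultiQC and MACS2 2.1.2, and the build was GRCh38. The HA regions were called per library from single-end tags extended to 200 bp, with duplicates removed, by MACS 2.1.1.20160309 per the file headers. That call used no control and no local background and a q-value limit of 0.05. The library mean was thus the background, and repeats or copy gains can give regions. For each region the deposited lists give the pileup signal, its −log10 q-value and −log10 p-value, and the ratio over background as fold enrichment, all the authors' own, used here only to describe and rank regions within a list.

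Summits of 1 region were merged, other contigs were left out, and 1 bp of overlap counted as shared. Gene ends come from RefSeq GRCh38.p14 (19974 protein-coding genes), whose table gives no strand, and transcription starts from its promoter table, which holds none on chromosome 8. The promoter table covered 15812 of these genes, and 1 of 410 list symbols was not matched. Named genes were the 10 genes with the highest ranked gene-end region outside dense bins in each class, up to 6 members per list by best tagged-only region, and KDM6A; some of these are not reported here. Members named with untagged-only regions or with regions inside genes were chosen after their values were seen, as were the printed promoters among those with a match. The members and lists were chosen with earlier results of these data known. Alternatives were equal list lengths, a −log10 q minimum of 5, 50% overlap, 1 kb joining, no input regions, no dense bins, windows of 1 and 10 kb, and summit position. With 1 library per group no test was made. Scripts ran in Python 3.11.15 with matplotlib 3.10.9, scipy 1.17.1, pandas 2.3.3 and numpy 2.4.6, and the functions were tested on simulated data.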

Additional observations from a re-analysis of the deposited data

How the results depend on the processing

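Without dense bins 2 differences between tagged-only and untagged-only regions changed sign: the overlap with the WT KDM6A antibody went from -15.98 to 11.71 percentage points and the gene-end share from 5.84 to -0.91. The other differences there were 56.51 (H3K27ac), 59.07 (H3K4me1) and 5.18 (H3K27me3). The tagged-only share of the tagged list was 61.0% with a −log10 q minimum of 5, 56.5% with equal list lengths, 55.0% with 50% overlap, 44.4% with 1 kb joining, 55.7% without input regions and 86.3% without dense bins. The untagged-only share was 67.3, 61.8, 72.3, 49.0, 71.5 and 85.0%. The H3K27ac difference was 56.52 with a −log10 q minimum of 5, 47.92 with equal lengths, 48.93 with 50% overlap, 58.27 with 1 kb joining and 37.89 by summit. H3K4me1 gave 45.52 with equal lengths, 47.24, 58.15 and 39.55 by summit. H3K27me3 gave 3.57 with a −log10 q minimum of 5, 5.01 with 1 kb joining, 5.14 without input and 0.124 by summit. The KDM6A antibody gave -23.73 and -24.28 with the first 2 settings, -9.09 with 1 kb joining, -13.93 without input and -11.01 by summit. Gene ends gave 6.43, 6.39 and 4.93 with a −log10 q minimum of 5, equal lengths and 1 kb joining, and 3.07 and 14.13 with windows of 1 and 10 kb. Genes with a tagged-only region numbered 2009 with a −log10 q minimum of 5 and 6098 with 10 kb. Genes with an untagged-only region numbered 1082, 1813 (equal lengths) and 4714. With a 1 kb window genes with a tagged-only and an untagged-only region numbered 2184 and 2423, which turns their order. List members with a tagged-only region numbered 154 with 10 kb. Of 136 counts of tagged-only members in single lists, 109 stayed within 1.5 times the main count and 27 did not. No paired analysis was possible because each group had 1 library. The weakest listed regions had 6 tags in the untagged and 8 in the tagged library, and the part of depth was not tested.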

Other observations

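Counted inside whole genes outside dense bins, 5267 of 19974 protein-coding genes held a tagged-only region and 4025 an untagged-only one. At least 5 regions were held by 574 and 394 genes, whose median lengths were 272 and 295 kb. The genes named here were chosen after their values were seen, as those with the most regions per 10 kb among genes with at least 5. The tagged-only end of that order held BMF, a pro-apoptotic BCL2 family member (5 regions in 21.0 kb, all on H3K27ac, no untagged-only region), SDC1 (5, with 6 untagged-only), and TNFSF8, the CD30 ligand (6 in 37.3 kb, all on H3K27ac, none untagged-only). Further down stood ELF4, an ETS factor (6), DUSP10, a MAP kinase phosphatase (5), ALOX5AP, which serves leukotriene synthesis (6), RHOH, a haematopoietic GTPase (6), CD86, a costimulatory ligand (7), and LCP2, an adaptor of antigen receptor signalling (5). All of the regions in these genes except 1 of the 7 at CD86 overlapped H3K27ac. Other genes of the same order held fewer on that mark, with 1 of 7 at ZNF595, which also held 10 shared regions, 3 of 5 at CXXC4, 4 of 7 at DUSP22, 3 of 5 at FAM241A and 2 of 5 at GABRR3. NSMCE2 held 32 tagged-only regions in 275 kb, 29 of them on H3K27ac, and 24 KDM6A antibody regions of WT.

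The untagged-only end held mostly members of near-identical families. TBC1D3 and TBC1D3L had 10 regions each in 10.9 kb, GOLGA6D had 15 and NPIPA9 14, and none of these overlapped H3K27ac. Copies in such families can share reads, so their counts are uncertain. The exceptions with mostly acetylated regions were IRF4 (14 regions in 19.7 kb, 11 on H3K27ac), HNRNPAB, an RNA-binding protein gene (5, of which 3), and IGLL5 (5, of which 5). These genes had 1, 0 and 0 KDM6A antibody regions of WT inside them.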
